A study of Mus musculus with 3 samples.

Results

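The loci described here are those of Neurog2, Eomes, Tbr1 and Neurod1, 4 transcription factor genes of the programme that commits pallial progenitors to glutamatergic neurons. The regions were taken by position alone: every H3K4me3 or H3K27me3 region within 30 kb of an mm9 position (the anchor) given for each gene. The anchors are chr3:127336000 for Neurog2, chr9:118387000 for Eomes, chr2:61642000 for Tbr1 and chr2:79293000 for Neurod1. The rule took 55 regions, 11 of the 21998 H3K4me3 regions and 44 of the 117512 H3K27me3 regions, of which 3 cross a window end. Gene starts and ends on mm9 were not used here, so the anchors could not be set against an mm9 gene model. The regions come from chromatin immunoprecipitation and sequencing of neurospheres, the floating cultures that neural stem cells form. Both libraries were made from cells of the subventricular zone of wild-type (WT) male C57BL/6 mice, 1 with an antibody to H3K4me3 and 1 with an antibody to H3K27me3. An input DNA library from the same source was not analysed here, and the age of the animals and any pooling are not given in the labels. With 1 library per mark, no value below has a replicate error and no test between the genes was possible. The cell type could not be checked against marker expression, since only region lists were used. The depth of the libraries is unknown, so the lack of a region is a lack of a call and not a measured absence.

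H3K4me3, trimethylation of lysine 4 of histone H3, marks active promoters and promoters held ready. H3K27me3 is laid down by Polycomb repressive complex 2, and genes of developmental regulators that a cell does not use often carry it in broad stretches. Where both marks lie on a promoter it is often called bivalent. In the embryonic cortex the factors act in sequence: the basic helix-loop-helix factor Neurog2 starts neuronal commitment in radial glia, the T-box factor Eomes (also called Tbr2) marks intermediate progenitors, the basic helix-loop-helix factor Neurod1 acts as these become neurons, and the T-box factor Tbr1 works in early postmitotic glutamatergic neurons. The adult subventricular zone, in contrast, mostly produces inhibitory interneurons of the olfactory bulb.

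The promoter sequences are shown because CpG-rich sequence is where both marks are usually found, and the 4 genes differ in it. Each is the 250 bases before the gene start in RefSeq on GRCm38.p6, a later build than that of the regions, and the coordinates of the builds were not joined. In that build they lie at chr3:127632886-127633135 (plus strand) for Neurog2, chr9:118477939-118478188 (plus) for Eomes, chr2:61804203-61804452 (plus) for Tbr1 and chr2:79456637-79456886 (minus) for Neurod1. They are written 5′ to 3′ on the gene's strand, with CpG dinucleotides in capitals.
Neurog2: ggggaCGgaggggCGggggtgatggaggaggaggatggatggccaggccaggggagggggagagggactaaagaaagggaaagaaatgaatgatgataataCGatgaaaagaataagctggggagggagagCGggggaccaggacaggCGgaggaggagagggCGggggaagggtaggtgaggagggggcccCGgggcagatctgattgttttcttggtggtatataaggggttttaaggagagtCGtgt
Eomes: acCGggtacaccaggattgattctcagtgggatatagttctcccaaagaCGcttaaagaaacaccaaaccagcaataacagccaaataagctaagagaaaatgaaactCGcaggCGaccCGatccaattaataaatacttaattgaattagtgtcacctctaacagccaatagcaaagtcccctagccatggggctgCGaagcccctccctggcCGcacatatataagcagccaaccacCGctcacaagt
Tbr1: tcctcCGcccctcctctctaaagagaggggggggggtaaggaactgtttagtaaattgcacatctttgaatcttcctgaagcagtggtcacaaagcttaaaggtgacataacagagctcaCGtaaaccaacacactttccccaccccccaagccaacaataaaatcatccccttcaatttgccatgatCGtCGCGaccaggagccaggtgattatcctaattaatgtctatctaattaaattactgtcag
Neurod1: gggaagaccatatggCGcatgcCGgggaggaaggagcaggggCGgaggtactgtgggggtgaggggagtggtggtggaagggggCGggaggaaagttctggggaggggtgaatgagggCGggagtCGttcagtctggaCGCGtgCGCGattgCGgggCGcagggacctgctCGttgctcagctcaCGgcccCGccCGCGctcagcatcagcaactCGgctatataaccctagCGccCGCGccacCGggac
Neurod1 had 22 CpG dinucleotides and a GC share of 67.6%, with more CpG than 85.2% of the 32851 RefSeq promoters of that length. Neurog2 and Eomes had 8 each, at GC shares of 58.0% and 46.4%, and Tbr1 had 5 at 45.2%. The median over all promoters was 6 CpG dinucleotides and 52.4% GC. CpG content just before the start therefore set Neurod1 apart from the other genes. Its relation to the H3K4me3 widths given below was not tested. Motifs were searched on both strands of the 250 bases. CANNTG, the E-box that basic helix-loop-helix factors bind, occurred 1 time each in Tbr1 and Neurod1 and not in Neurog2 or Eomes, and 66.2% of all promoters held it. CGCG occurred 4 times in Neurod1 and 1 time in Tbr1, against 33.8% of all promoters with a match, and it cannot overlap an E-box match. GGTGTGA, part of the site that T-box factors bind, was found in none of the 4 and in 3.33% of all promoters.

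All 4 genes had an H3K4me3 region over or within 1 kb of the anchor, and H3K27me3 lay on each of them. Over the 4 windows, 9 of the 11 H3K4me3 regions (81.8%) shared at least 1 bp with H3K27me3, against 33.5% of all H3K4me3 regions in the list. H3K27me3 covered 7 of the 11 (63.6%) from end to end, against 9.55% in the list. Regions of 1 window share their surroundings and are not independent, so these shares are a description of 4 places. The libraries came from bulk cultures, in which marks on the same chromosome copy and marks in different cells cannot be told apart. The map of regions by distance from the anchor shows each of them.

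**Figure D1:**
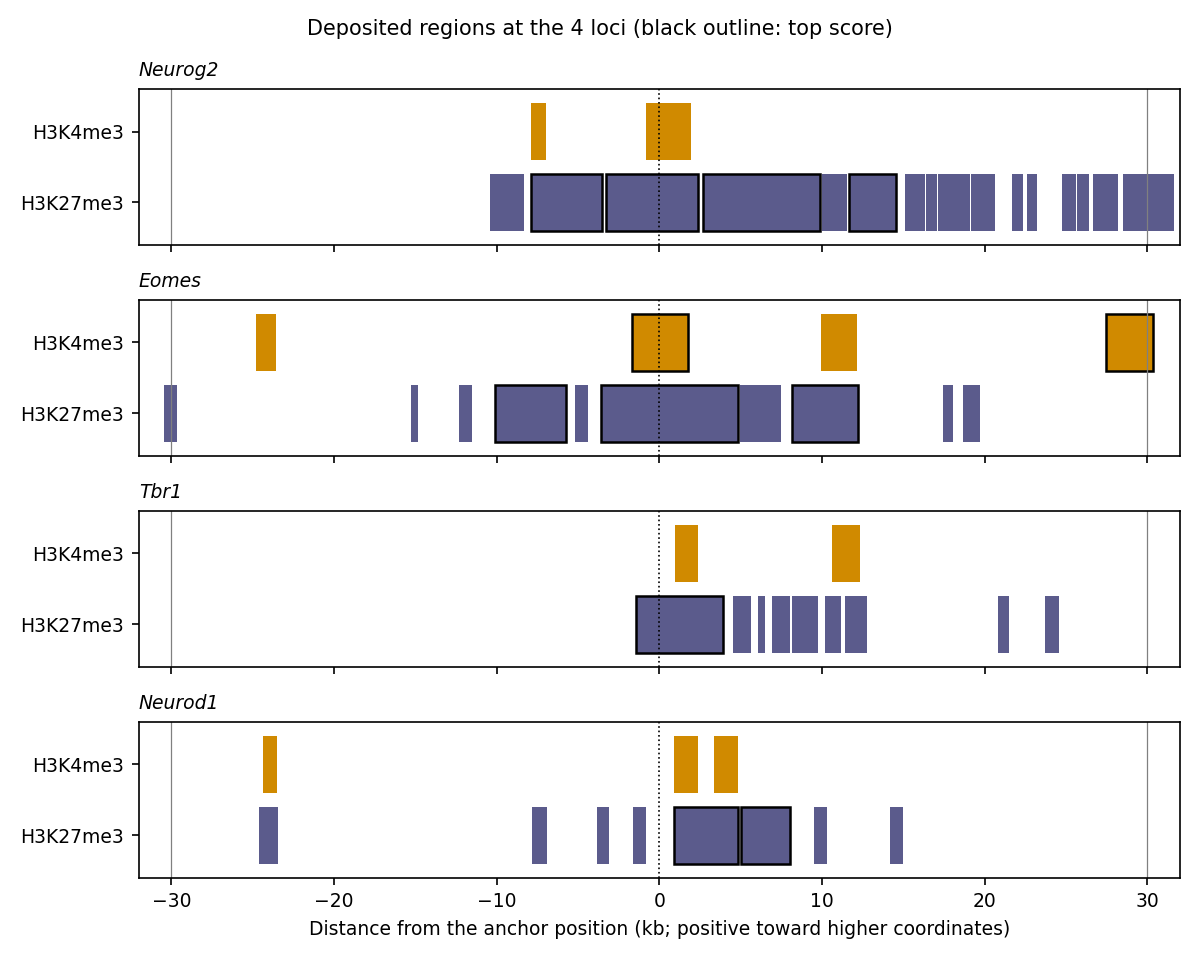
Regions of both lists by distance from the anchor (kb), 1 panel per gene, with H3K4me3 above and H3K27me3 below; each box is 1 deposited region, a black outline marks a score of 3100 or more, the dotted line is the anchor and the grey lines are the window ends at 30 kb. H3K27me3 lies under the H3K4me3 region nearest to the anchor at all 4 genes, while H3K4me3 regions at -24.8 and 27.5 kb from the Eomes anchor have none.

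At Neurog2, the first factor of the sequence, the H3K4me3 region over the anchor was 2804 bp wide (chr3:127335156-127337959), wider than 74.0% of all H3K4me3 regions. H3K27me3 covered it from end to end with a region of 5648 bp that reached 2417 bp past its lower end and 427 bp past its higher end. The score of the H3K4me3 region was 2257.2, higher than 44.4% of all H3K4me3 regions, and that of the H3K27me3 region 3100. Scores are the authors' and have no stated scale. They pile up at 3100 in both lists, so 3100 or more is called the top score here, and they are read only within a list. The other H3K4me3 region of the Neurog2 window, 917 bp wide with a score of 116.98, began 7.86 kb below the anchor and was also covered from end to end. Neurog2 thus had no H3K4me3 outside H3K27me3 within 30 kb.

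At Eomes the H3K4me3 region over the anchor was the widest of the 4, at 3432 bp (chr9:118385340-118388771), wider than 86.4% of the list. It was also the only one of the 4 at the top score, which 52.6% of all H3K4me3 regions reached. H3K27me3 covered all of it with a region of 8447 bp, wider than 99.35% of all H3K27me3 regions, that reached 1924 and 3091 bp past its ends. Of the 2101 wholly covered H3K4me3 regions, 299 (14.2%) had the top score. Among those 2101 the median width was 1393 bp, and the Eomes region was wider than 98.19% and the Neurog2 region wider than 96.05% of them.

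The Eomes window was the only one of the 4 to hold H3K4me3 without H3K27me3. A region of 2205 bp that began 9.96 kb above the anchor was covered from end to end, like the one over the anchor. A region of 1217 bp that began 24.8 kb below the anchor had no H3K27me3, the nearest lying 4.86 kb away. A region of 2860 bp at the top score, from 27.5 to 30.3 kb above the anchor and so partly outside the window, had none within 7.78 kb. By gene order in RefSeq the next coding gene on that side is Golga4. Which gene either region belongs to was not analysed here.

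At Tbr1, the factor of postmitotic neurons, the nearest H3K4me3 region was 1428 bp wide (chr2:61642938-61644365), wider than 34.1% of the list, and began 937 bp above the anchor. Its score of 315.23 was the lowest of the 4 and higher than 26.38% of the list. H3K27me3 covered all of it with a region of 5341 bp at the top score, which reached 2375 and 1538 bp past its ends. H3K4me3 made up 26.7% of this H3K27me3 region, the lowest share of the 4, against 49.6% at Neurog2, 40.6% at Eomes and 74.0% at Neurod1. The second H3K4me3 region of the window, 1705 bp wide with a score of 683.82, began 10.6 kb above the anchor. A pair of H3K27me3 regions lay over its ends and left 247 bp free between them, so that 85.5% of it was covered.

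Neurod1 differed from the other genes in having a close pair of H3K4me3 regions, 1457 bp (chr2:79293907-79295363) and 1476 bp wide (chr2:79296383-79297858), with 1019 bp between them. Their scores were 2509.39 and 1350, higher than 45.35 and 39.89% of the list. Each alone was wider than 35.0 and 35.6% of the list, but from end to end the pair spanned 3952 bp, more than the Eomes region. RefSeq gives Neurod1 on the minus strand, so the region with the higher coordinates lies on the upstream side of the other. Which of them lies over the gene start was not analysed here.

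H3K27me3 at Neurod1 was a single region of 3940 bp at the top score that matched the pair closely. It began 16 bp after the lower end of the pair and ended 4 bp after its higher end, so that 98.9% of the first and all of the second were covered. At the other 3 genes the region over the H3K4me3 reached at least 427 bp past both ends. When all H3K4me3 regions were merged over gaps of up to 3 kb, 10 of 19851 (0.0504%) matched 1 H3K27me3 region at both ends within 20 bp. The 10 include the Neurod1 pair, and the tolerance was chosen after the Neurod1 values were seen. The 19851 include H3K4me3 regions without H3K27me3, which could not match. Before merging, 33.5% of all H3K4me3 regions shared at least 1 bp with H3K27me3. A further H3K4me3 region of 910 bp, 24.4 kb below the anchor, was covered from end to end by an H3K27me3 region of 1147 bp.

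In H3K4me3 width the order was thus Eomes, Neurog2, Neurod1, Tbr1, with the last 2 only 29 bp apart. Taking the pair at Neurod1 as 1 region put this gene ahead of Eomes. Few H3K4me3 regions in the list were both as wide and as fully covered as those of Eomes and Neurog2. There were 38 (0.173%) at least as wide and as covered as Eomes and 83 (0.377%) for Neurog2, counting the gene's own region. For Tbr1 there were 1000 (4.55%), and for the Neurod1 region nearest to the anchor 1037 (4.71%). These are shares of all 21998 H3K4me3 regions, most of which had no H3K27me3. For Eomes and Neurog2 only the 2101 wholly covered regions could count, so their counts restate the width percentiles among those 2101 given above. The Neurod1 pair taken as 1 region was not counted in this way. The plot of widths and lengths sets the genes in the whole lists.

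**Figure D2:**
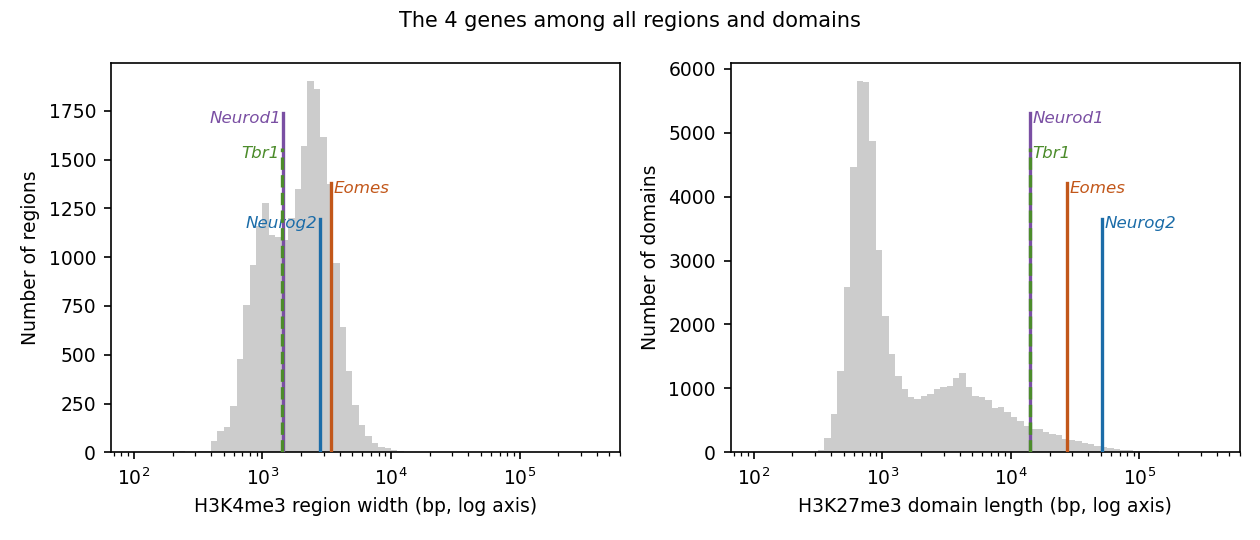
Left, widths of all 21998 H3K4me3 regions; right, lengths of all 53714 H3K27me3 domains (regions merged over gaps of up to 3 kb), both on log axes with counts on the vertical axis; lines of different height mark the region nearest to the anchor and its domain at each gene. Eomes and Neurog2 lie right of the median H3K4me3 width of 1988 bp and Tbr1 and Neurod1 left of it, while all 4 domains lie in the upper tail, with Tbr1 (dashed) and Neurod1 at nearly the same length.

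H3K27me3 around the genes was read as domains, made by merging H3K27me3 regions over gaps of up to 3 kb. With this gap all 4 genes lay in a domain of 10 kb or more, as did 62.7% of all wholly covered H3K4me3 regions, while 8.32% of the 53714 domains were that long. The Neurog2 domain was the longest at 51.4 kb (chr3:127325585-127376994). It was built from 22 regions, 4 of them at the top score, that filled 81.7% of it, and it was longer than 91.2% of the 4467 domains of 10 kb or more. The Eomes domain was 27.5 kb long (chr9:118371711-118399228), with 7 regions that filled 78.1% of it. It was longer than 72.8% of the domains of 10 kb or more.

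Tbr1 and Neurod1 lay in domains of nearly equal length. The Tbr1 domain measured 14.2 kb (chr2:61640563-61654767), was filled to 84.2% by 7 regions and had no gap over 618 bp. The Neurod1 domain measured 14.1 kb (chr2:79289164-79303292) and was the least filled, at 65.9% by 5 regions. Among the domains of 10 kb or more, whose median length was 18.0 kb, they were longer than 33.0 and 32.6%. Each of the 4 domains held 2 H3K4me3 regions.

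The gap used for merging bears on these lengths. The Neurod1 domain fell short of 10 kb with gaps of up to 1 kb (7.13 kb) and with the upper 50% of H3K27me3 regions by score (9.37 kb), while the other 3 stayed above it in both. Gaps of up to 5 kb gave 150.4 kb at Neurog2, where H3K27me3 regions continued 3430 bp beyond the higher end, and 22.8 kb at Neurod1. They left Eomes at 27.5 and Tbr1 at 14.2 kb. At gaps of 1, 3, 5 and 10 kb Neurog2 came first and Eomes second. The Neurod1 domain was longer than the Tbr1 domain only at 5 kb, as the plot of length by gap shows. At 10 kb Tbr1 was again the longer, at 26.0 against 22.8 kb.

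**Figure D3:**
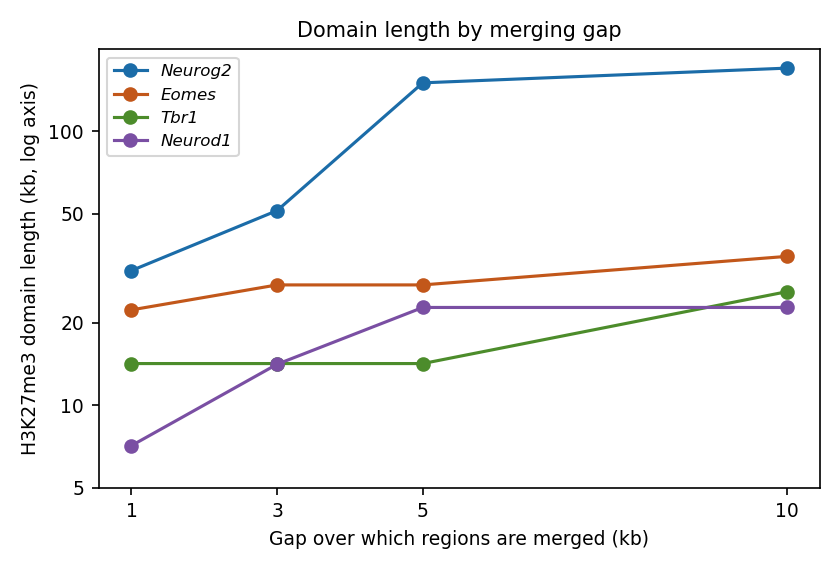
Length of the H3K27me3 domain at each gene (kb, log axis) when regions are merged over gaps of up to 1, 3, 5 or 10 kb; each point is 1 domain of the 1 library. The Neurog2 domain grows from 31.0 to 170.2 kb and the Eomes domain from 22.3 to 35.0 kb. The Neurod1 domain is longer than the Tbr1 domain only at 5 kb.

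H3K27me3 cover of the whole 60 kb window followed the same order. It was 58.4% at Neurog2, 39.1% at Eomes, 22.4% at Tbr1 and 20.3% at Neurod1, where the mean over the assembled chromosomes was 5.68%. In windows of the same size centred on H3K4me3 regions that overlap H3K27me3, the median was 16.3% (interquartile range 5.72 to 36.2%). Neurog2 lay above 90.5% and Eomes above 77.8% of those windows, outside that range, while Tbr1 (59.3%) and Neurod1 (56.0%) lay near the middle. Among windows on wholly covered H3K4me3 regions, the class most like the 4 genes, Neurog2 lay above 80.2%, Eomes above 58.7%, Tbr1 above 35.8% and Neurod1 above 32.9%. The H3K27me3 regions numbered 17, 10, 9 and 8 in the order given. Of the 44, 10 (22.7%) were at the top score, against 2.55% of the list. The top score was more frequent among H3K27me3 regions that touch H3K4me3. In the list 18.2% of the 8325 such regions had it, and in the windows 6 of 9.

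The cover was uneven on the sides of the anchors. At all 4 genes more of the side toward higher coordinates was covered: 84.2 against 32.5% at Neurog2, 43.6 against 34.5% at Eomes, 40.04 against 4.79% at Tbr1 and 28.5 against 12.0% at Neurod1. Neurog2, Eomes and Tbr1 are on the plus strand in RefSeq, and Neurod1 is on the minus strand. The Neurod1 anchor lies below both regions of the pair, and where the gene start falls among them was not analysed here, so its sides cannot be read as upstream and downstream of the start. The Tbr1 domain began only 1.44 kb below the anchor, and the next H3K27me3 region on that side was 520426 bp away. At Neurog2 the domain began 10.4 kb below the anchor, with the next region 122655 bp away. The Neurod1 domain began 3.84 kb and the Eomes domain 15.3 kb below the anchor, with the next region 3044 and 14378 bp away. Among the 4 genes, the stretch free of called H3K27me3 regions below the domain was thus longest at Tbr1 and next longest at Neurog2. How these distances compare with those at other domains of the list was not analysed here.

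The cover also differed by distance. Within 2 kb of the anchor the cover was 100% at Neurog2 and Eomes, 86.0% at Tbr1 and 47.0% at Neurod1, whose H3K27me3 region began 0.922 kb above the anchor. The anchor lay inside the H3K4me3 region at Neurog2 and Eomes, but 937 bp below it at Tbr1 and 906 bp below it at Neurod1. Values this near the anchor thus depend on its place. The H3K4me3 region itself was covered to 100% at Tbr1 and 98.9% at Neurod1. From 5 to 10 kb it was 94.7% at Neurog2 and 87.7% at Eomes, against 37.9% at Tbr1 and 44.7% at Neurod1. From 20 to 30 kb it was still 32.8% at Neurog2, all of it on the higher side, and 1.66% at Eomes, 7.47% at Tbr1 and 5.74% at Neurod1. The high cover at Eomes therefore ended within the window, while that at Neurog2 ran past it, as the plot of cover by distance shows.

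**Figure D4:**
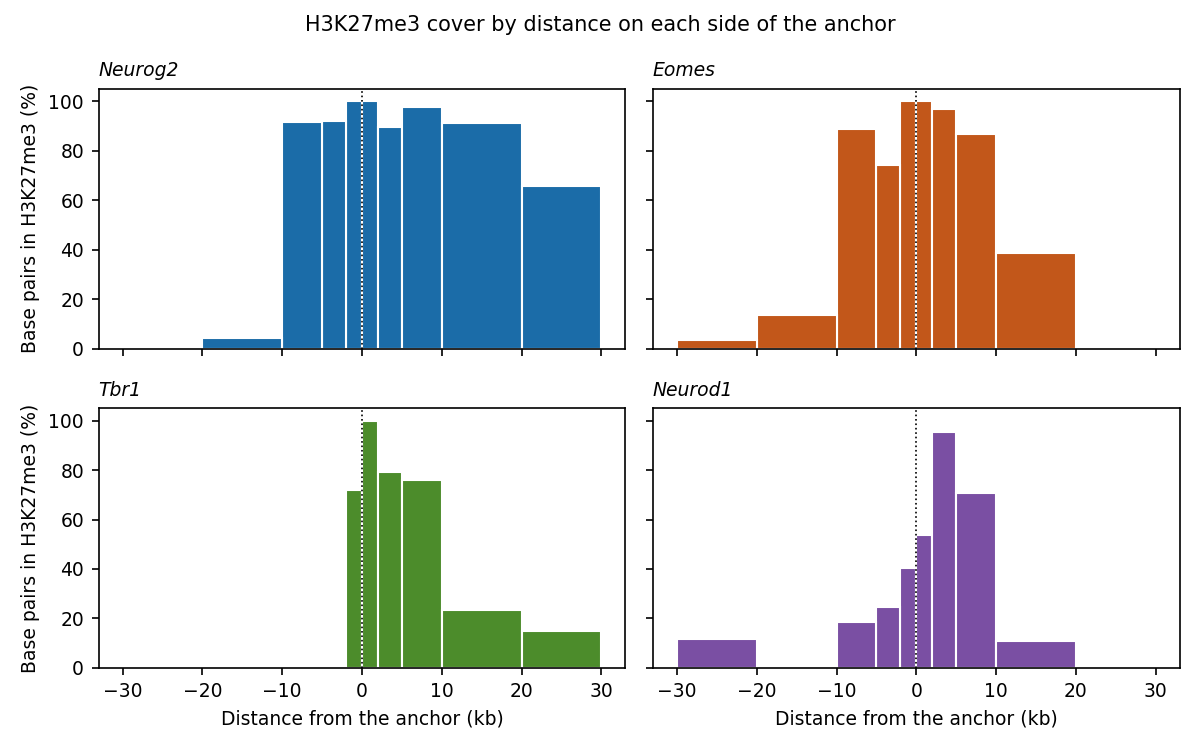
Share of base pairs in H3K27me3 regions (%) by distance from the anchor in kb, 1 panel per gene, with bars for 0 to 2, 2 to 5, 5 to 10, 10 to 20 and 20 to 30 kb on each side and negative distances toward lower coordinates. Neurog2 stays at 65.6% from 20 to 30 kb on the higher side, and Tbr1 has no cover beyond 2 kb on the lower side.

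The windows held 2 H3K4me3 regions at Neurog2, 4 at Eomes, 2 at Tbr1 and 3 at Neurod1, where windows of that size on all H3K4me3 regions held a median of 2. From 30 to 50 kb from the anchors no further H3K4me3 region was called at any of the 4 genes. Counted from the domain ends, the nearest H3K4me3 region outside lay 67.5 kb below and 31.1 kb above at Neurog2, 8.30 and 15.2 kb at Eomes, 89.0 and 229 kb at Tbr1, and 19.6 and 48.6 kb at Neurod1. The nearest coding genes by RefSeq gene order are Zgrf1 and Alpk1 for Neurog2, Psmd14 and Slc4a10 for Tbr1, and Cerkl and Itprid2 for Neurod1. Of these 8 outside regions, the one above Neurog2 and the one below Neurod1 carried H3K27me3, and the other 6 did not. In the list, 33.5% of all H3K4me3 regions shared at least 1 bp with H3K27me3, so 2 of 8 is not far from that share. Neurog2 and Eomes, grouped as the factors of progenitors, had the wider H3K4me3 regions, the longer domains and the higher cover of the 60 kb window. Neurod1 and Tbr1 had the lower values. For width this held only with the Neurod1 pair taken as separate regions. The H3K4me3 score did not follow this grouping, at 2509.39 for Neurod1 and 2257.2 for Neurog2. Nor did H3K27me3 cover from 20 to 30 kb, at 1.66% for Eomes, 7.47% for Tbr1 and 5.74% for Neurod1. The difference rests on 4 genes in 1 library per mark and was not tested.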

How the data were processed

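The authors deposited a list of regions for each mark, giving each region's limits and a score of no stated scale. The submitters' processing notes list Bowtie 1.1.2 and mm9 with no role, and the region names carry the MACS prefix, per the file headers and rows. No source used here gives the MACS version, its threshold, read filters or the use of the input. Groups follow the antibody in the labels. BED starts were counted from 1. Widths, overlaps (at least 1 bp) and domains (gaps of up to 3000 bp) were computed in Python 3.11.15 with NumPy 2.4.6 and pandas 2.3.3, drawn with matplotlib 3.10.9, tested on simulated data, and differed by 0 from bedtools 2.31.1 in the counts of overlaps and domains. The gene's H3K4me3 region is the one over or nearest to the anchor. All members and every region within 30 kb are named or counted by rule. Other genes of the pallial programme were listed but not described, for want of mm9 positions. Members and lists were chosen with earlier results of these data known. Promoters come from RefSeq (GRCm38.p6, 4 of 4 genes matched), and gene order from the same assembly.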

Additional observations from a re-analysis of the deposited data

How the results depend on the processing

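Cover of the H3K4me3 region nearest to the anchor stayed at 100% for Neurog2, Eomes and Tbr1 and 98.9% for Neurod1 with the upper 50% of H3K27me3 regions by score or with scores of at least 100. The H3K4me3 width, taken as the widest region of the window, was 1705 bp at Tbr1 and 1476 bp at Neurod1. Merged over 3000 bp, an alternative chosen after seeing the data, it was 3952 bp at Neurod1, and over 1000 bp no width changed. In the order Neurog2, Eomes, Tbr1, Neurod1, window cover was 94.6, 89.5, 48.1 and 49.7% within 10 kb, 71.2, 57.8, 29.9 and 27.6% within 20 kb, 45.0, 23.9, 14.5 and 13.4% within 50 kb, and 53.6, 33.7, 20.6 and 17.6% with the upper 50% by score. Chosen after seeing the data, it was 43.4, 12.45, 7.245 and 6.69% within 100 kb. Centred on the H3K4me3 region, also chosen then, it was 59.3% at Neurog2, 39.0% at Eomes and as reported at the others. Domain length was 31.0, 22.3, 14.2 and 7.13 kb at a gap of 1000 bp, 150.4, 27.5, 14.2 and 22.8 kb at 5000 bp, 170.2, 35.0, 26.0 and 22.8 kb at 10000 bp, and 32.8, 22.3, 14.2 and 9.37 kb with the upper 50% by score. The 9 H3K4me3 regions with H3K27me3 were also 9 with 200 bp or 50% shared. With the upper 50% of each list by score there was 1, since only 2 of the 11 H3K4me3 regions were left. The share over all H3K4me3 regions is given only for 1 bp shared (33.5%), so the counts at these other settings have no matching share. The count of H3K4me3 regions was 7 within 10 kb, 8 within 20 kb and 11 within 50 kb, and that of H3K27me3 regions 20, 34 and 55. No paired analysis was possible because there is 1 library per mark. Depth is unknown, so weak regions may be missing from either list.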
